A study of Mus musculus with 9 samples.

Results

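The 34 genes described here are p53 target and DNA damage response genes of the mouse. They were taken by symbol from a list of p53 pathway genes after each Ensembl identifier, with its version dropped, had been matched to a mouse symbol, and all 34 were found among the 56923 gene identifiers of the count table. All 34 also passed the low-count filter, which kept 17036 genes for testing, and no gene of the 34 passed it through 1 group alone. By role they comprise 4 regulators (Trp53, Mdm2, Mdm4, Ppm1d), 10 genes of cell cycle arrest, 11 of cell death, 4 of DNA repair and 5 of growth and metabolic control.

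RNA was sequenced from kidneys of wild-type mice in 9 libraries, 3 for each of 3 groups, to ask what PTP1B, the tyrosine phosphatase encoded by Ptpn1, does in acute kidney injury (AKI). Sham animals underwent surgery but no ischemia-reperfusion (IR) injury, and their treatment label is PBS. Of the injured kidneys, 3 libraries came after phosphate-buffered saline (AKI_PBS) and 3 after PTPi@mEVs, milk-derived extracellular vesicles that carry siRNA against PTP1B (AKI_PTPi_mEVs). No group received vesicles without this siRNA, so the vesicles and the siRNA cannot be told apart, and the labels give no time after injury, strain, age or batch. Whether each library is a separate animal is not in the labels, and the p-values therefore reflect the spread among these libraries, which may be technical.

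The transcription factor p53, encoded by Trp53, is controlled mainly through the stability of its protein: Mdm2 ubiquitinates it, Mdm4 blocks its activity, and DNA damage kinases release it from both. Activated p53 raises the transcription of genes that stop the cell cycle, start apoptosis, repair DNA or slow growth, and of Mdm2 itself, which closes a feedback loop. In the kidney, p53 and the arrest gene Cdkn1a are known from tubule cells after ischemia, and many of these target genes also respond to stress pathways other than p53.

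Promoters are shown for Cdkn1a, the gene with the largest fold change of the 34, for 3 other genes of the p53 loop or of arrest, and for Btg2, an arrest gene whose window holds no match. RefSeq windows on GRCm38.p6, running from 250 bases before to 50 bases after a start, were at hand for 26 of the 34 genes (33 windows). They were searched on both strands for exact matches to the p53 half-site, and capitals mark each match. In Cdkn1a the windows of the upstream and the downstream start lie 2790 bases apart, and the matches are in the upstream window only, with first bases at -73 and -51.
Cdkn1a upstream start, chr17:29090729-29091028, + strand: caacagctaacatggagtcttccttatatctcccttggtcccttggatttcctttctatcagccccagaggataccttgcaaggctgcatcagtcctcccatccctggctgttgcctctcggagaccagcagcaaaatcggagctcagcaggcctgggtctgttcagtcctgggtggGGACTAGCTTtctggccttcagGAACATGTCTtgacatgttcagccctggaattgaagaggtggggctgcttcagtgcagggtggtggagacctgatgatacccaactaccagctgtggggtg
Cdkn1a downstream start, chr17:29093519-29093818, + strand: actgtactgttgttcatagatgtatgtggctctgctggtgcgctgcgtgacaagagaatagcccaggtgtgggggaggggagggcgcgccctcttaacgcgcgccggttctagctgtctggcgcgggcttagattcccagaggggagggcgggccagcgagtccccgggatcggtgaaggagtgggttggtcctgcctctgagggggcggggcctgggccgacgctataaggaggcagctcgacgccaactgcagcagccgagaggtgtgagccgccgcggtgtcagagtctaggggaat
Mdm2, chr10:117710709-117711008, - strand: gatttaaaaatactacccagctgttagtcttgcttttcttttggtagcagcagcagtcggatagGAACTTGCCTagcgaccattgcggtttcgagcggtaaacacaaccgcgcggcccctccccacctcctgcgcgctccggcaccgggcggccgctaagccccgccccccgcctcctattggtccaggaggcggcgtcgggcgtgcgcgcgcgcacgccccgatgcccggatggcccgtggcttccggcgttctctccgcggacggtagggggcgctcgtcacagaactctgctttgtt
Gadd45a, chr6:67037358-67037657, - strand: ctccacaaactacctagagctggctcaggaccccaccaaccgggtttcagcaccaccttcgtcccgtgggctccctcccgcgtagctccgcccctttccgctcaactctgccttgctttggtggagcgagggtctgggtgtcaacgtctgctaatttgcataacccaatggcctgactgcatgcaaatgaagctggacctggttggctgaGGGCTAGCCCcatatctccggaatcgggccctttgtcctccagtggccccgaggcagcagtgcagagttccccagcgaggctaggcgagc
Trp53, chr11:69580109-69580408, + strand: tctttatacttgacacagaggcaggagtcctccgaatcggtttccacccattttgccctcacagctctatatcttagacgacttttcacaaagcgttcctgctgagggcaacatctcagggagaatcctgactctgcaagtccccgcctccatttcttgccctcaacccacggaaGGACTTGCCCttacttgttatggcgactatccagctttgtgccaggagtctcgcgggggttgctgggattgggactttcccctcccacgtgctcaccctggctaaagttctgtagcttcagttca
Btg2, chr1:134079106-134079405, - strand: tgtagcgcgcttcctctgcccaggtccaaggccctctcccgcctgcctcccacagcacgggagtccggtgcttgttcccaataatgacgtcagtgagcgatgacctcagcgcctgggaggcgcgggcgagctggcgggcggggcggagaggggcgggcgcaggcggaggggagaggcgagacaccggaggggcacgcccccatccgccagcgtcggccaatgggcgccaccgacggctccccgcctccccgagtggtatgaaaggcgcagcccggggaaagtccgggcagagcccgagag

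A half-site match was present in 12 of the 33 windows, and in at least 1 window of 11 of the 26 genes (Aen, Bax, Ccng1, Cdkn1a, Ei24, Gadd45a, Mdm2, Polk, Ppm1d, Sesn1 and Trp53). Over all 32851 RefSeq windows, 2745 (8.36%) held one. The first base of the match lies at -186 in Mdm2, at -40 in Gadd45a and at -75 in Trp53. Of the 11 genes with a match, 5 were higher in AKI_PBS than in sham, 1 was lower and 5 were not called. Of the 15 without one, 9 were higher and 6 were not called. A match describes the letters of the window and is not a measured binding site. The lack of one leaves inexact sites and sequence outside the window unsearched, and does not show that a gene has no p53 site. Rrm2b, Ddb2, Tnfrsf10b, Xpc, Perp, Trp53inp1, Pmaip1 and Zmat3 had no window in the table.

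Library totals lay between 9467851 and 11389479 counts, a ratio of 1.20. Ptpn1, the gene the siRNA targets, was at 80.7 to 98.5 CPM in sham, 122.5 to 169.9 CPM in AKI_PBS and 93.8 to 106.2 CPM in AKI_PTPi_mEVs, lower with vesicles than with saline by -0.53 ± 0.15 on the log2 scale (SE, edgeR adjusted p = 0.0086). Levels are given as CPM, a count relative to library size, on library totals scaled by TMM factors, and are compared between libraries of 1 gene, not between genes. The 8 kidney markers were detected in every library, and their summed level was 8868 to 9654 CPM in sham, 3408 to 5577 CPM in AKI_PBS and 6161 to 7933 CPM in AKI_PTPi_mEVs. The summed level of 12 immune cell markers was 89.8 to 110.4 CPM in sham, 74.8 to 95.15 CPM in AKI_PBS and 73.75 to 90.37 CPM in AKI_PTPi_mEVs. Within that list the neutrophil genes S100a8, Retnlg and Ly6g were at 0 in all 3 sham libraries. Ly6g had 1, 3 and 0 counts in the AKI_PBS libraries and was not tested. Of the 9 immune markers tested, 5 were higher and 2 lower in AKI_PBS than in sham, and 3 higher and 4 lower with vesicles than with saline. Of these, S100a8, S100a9, Cxcr2 and Retnlg passed the low-count filter through AKI_PBS alone, which fixed their direction, and they are 4 of the 5 higher and all 4 of the lower. Over all genes tested, 55.7% and 51.1% passed an edgeR adjusted p under 0.05 in these 2 comparisons. The kidney marker sum was lower in AKI_PBS than in both other groups, and its part in the results was not tested. In bulk tissue, fewer cells of a type and less RNA per cell cannot be told apart.

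AKI_PBS replicate 3 stood apart among the injured libraries. It lay more than 1.5 times above both other AKI_PBS libraries for 6 of the 34 genes (Btg2, Pmaip1, Fas, Trp53inp1, Sesn2 and Sesn1), against 7.81% of all genes tested, and by the same factor below both for Bax and Eda2r, against 10% of all genes. AKI_PBS replicate 1 lay by that factor below both others for 5 of the 34 (Bbc3, Gadd45a, Gadd45b, Gadd45g and Plk2), against 4.33% of all genes. Calls that turn on one of these libraries are named beside their values.

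The 4 largest rises in the injured kidneys were those of the arrest genes Cdkn1a, Sfn, Btg2 and Gadd45a. Without AKI_PBS replicate 3 Btg2 stood at 2.50 on the log2 scale, below the growth gene Epha2 at 2.69. In AKI_PBS against sham, edgeR called 19 of the 34 genes higher and 3 lower at an adjusted p under 0.05, and the groups did not overlap for 22 of the 34, as for 62.1% of all genes tested. Calls were common among all 17036 genes as well, of which 55.7% were called, 27.8% higher and 27.9% lower. The median log2 fold change was 0.73 over the 34 genes and 0.03 over all genes. By role, 6 of 10 arrest genes rose and 1 fell, 8 of 11 death genes rose, 4 of 5 growth genes rose, 2 of 4 repair genes fell, and 1 of 4 regulators rose. The median log2 fold change was 2.34 for arrest, 0.92 for death, 0.76 for growth, 0.28 for the regulators and -0.67 for repair.

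**Figure D1:**
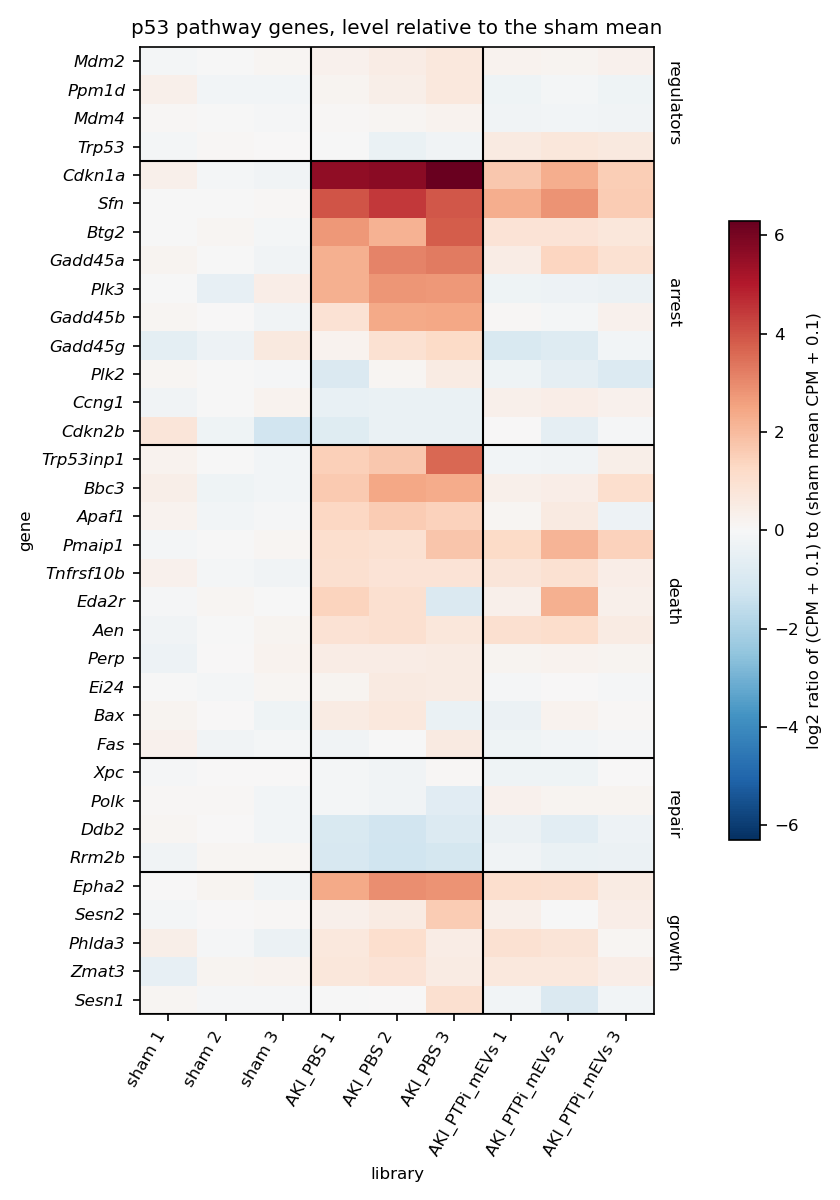
Level of each of the 34 genes (rows, grouped by role and ordered by fold change in AKI_PBS against sham) in each of the 9 libraries (columns), as the log2 ratio of its CPM plus 0.1 to the sham mean plus 0.1, with red for higher and blue for lower. The darkest cells are Cdkn1a in the AKI_PBS libraries, Ddb2 and Rrm2b are blue there, and AKI_PBS replicate 3 is darker than its group for Btg2 and Trp53inp1.

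In the injured kidneys given vesicles, most of the arrest genes were lower than in the injured kidneys given saline, and Trp53 and 3 of the 4 repair genes were higher. AKI_PTPi_mEVs against AKI_PBS had 5 of the 34 genes called higher and 15 lower by edgeR, where 51.1% of all genes were called, 25.4% higher and 25.8% lower. Scaling by library totals alone gave 3 higher and 18 lower. That scaling moved the median log2 fold change of all genes from -0.03 to -0.13. The median over the 34 genes was -0.33. By role, 7 of 10 arrest genes were lower and 1 higher (median -1.90), 4 of 11 death genes were lower (median -0.31), 2 of 5 growth genes were lower (median -0.66), 3 of 4 repair genes were higher (median 0.55), and 2 regulators were lower and 1 higher (median -0.29). The 3 repair calls came down to 1 with library totals, with only the groups compared, or without vesicle replicate 1 or 3. The 3 regulator calls came down to 1 with no low-count filter, without AKI_PBS replicate 3 or without any 1 vesicle library. The 2 growth calls came down to 1 with only the groups compared, without AKI_PBS replicate 3 or without vesicle replicate 2. This comparison uses the same AKI_PBS libraries as the comparison with sham, so the changes of a gene in both are not independent.

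Between the vesicle group and sham the differences were fewer. In AKI_PTPi_mEVs against sham 7 of the 34 genes were higher and 0 lower by edgeR (Trp53, Cdkn1a, Sfn, Gadd45a, Pmaip1, Aen and Epha2), where 13.2% of all genes were called, 7.43% higher and 5.79% lower. The count of 0 lower genes was also 0 with DESeq2, and 2 of the 34 were lower at an unadjusted p under 0.05. Plk2 was called lower with only the groups compared (edgeR adjusted p = 0.0378), and Gadd45g with a replicate block (adjusted p = 0.0485). The median log2 fold change over the 34 genes was 0.20, against -0.01 over all genes. Without AKI_PTPi_mEVs replicate 2 the count of called genes was 4. This comparison shares its libraries with both others.

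**Figure D2:**
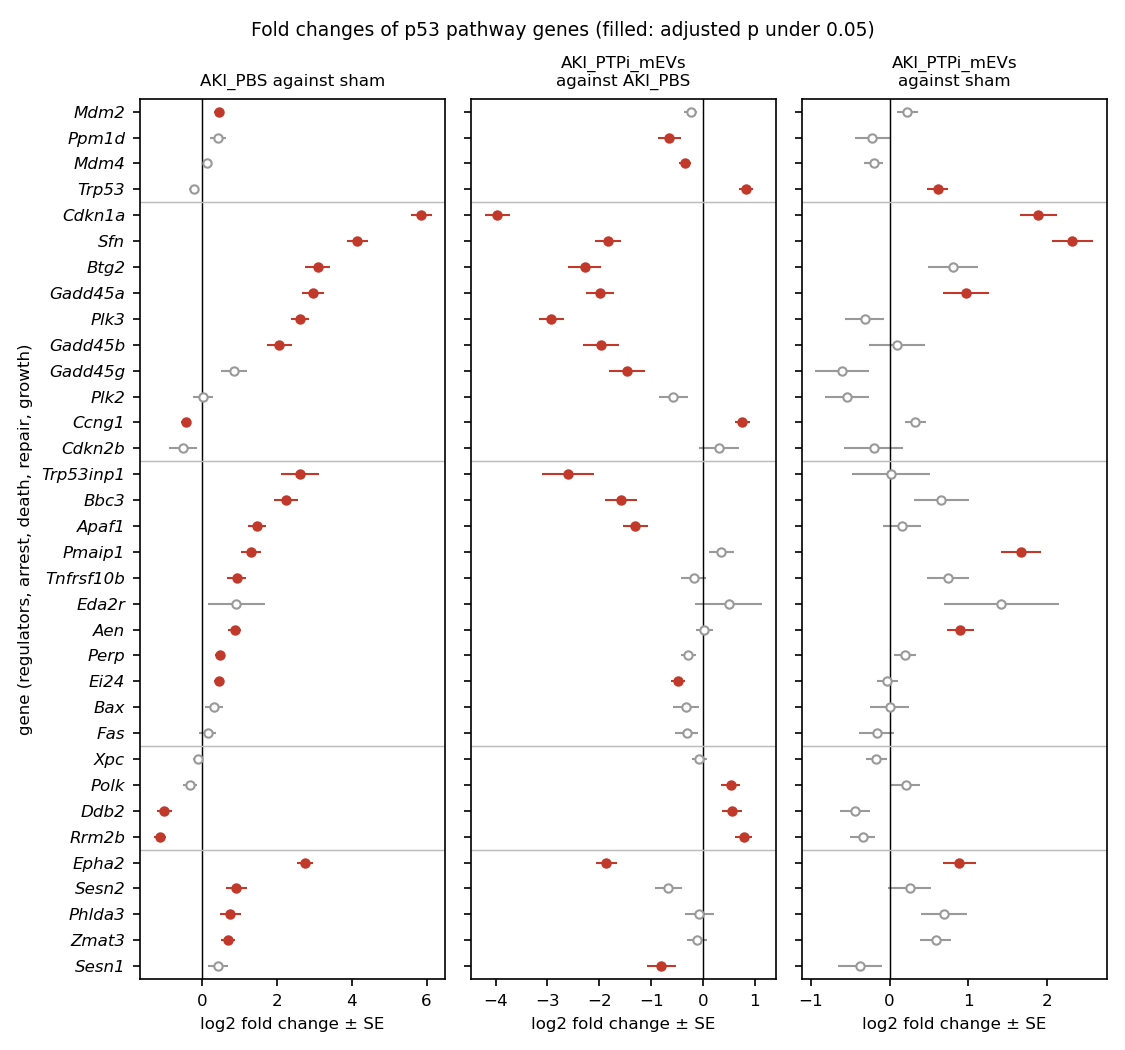
Log2 fold change of each of the 34 genes with its SE, in AKI_PBS against sham (left), AKI_PTPi_mEVs against AKI_PBS (middle) and AKI_PTPi_mEVs against sham (right), with separate horizontal scales. Filled points passed an edgeR adjusted p under 0.05, which 22, 20 and 7 genes did, and horizontal lines part regulators, arrest, death, repair and growth genes.

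Among the regulators, Mdm2 was higher in injured kidneys and Trp53 mRNA was higher in the vesicle group than in either other group. Trp53 (ENSMUSG00000059552.14) stood at 61.0, 70.3 and 68.6 CPM in sham, at 65.2, 49.7 and 57.8 CPM in AKI_PBS and at 98.2, 107.9 and 100.5 CPM in AKI_PTPi_mEVs. The sham and AKI_PBS libraries overlapped, and every vesicle library lay above all 6 others. The log2 fold change was -0.21 ± 0.13 (SE, n = 3 per group, edgeR adjusted p = 0.196) for AKI_PBS against sham, 0.83 ± 0.13 (adjusted p = 0.000272) for vesicles against AKI_PBS and 0.62 ± 0.13 (adjusted p = 0.0102) for vesicles against sham. The last call was lost without AKI_PTPi_mEVs replicate 2, at 0.56 and an adjusted p of 0.0602.

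Mdm2, the ubiquitin ligase that p53 itself induces, was measured at 48.75, 51.3 and 57.4 CPM in sham, 63.1, 71.5 and 82.4 CPM in AKI_PBS and 61.7, 59.5 and 63.0 CPM in AKI_PTPi_mEVs. All 6 injured libraries lay above the 3 sham libraries. It rose by 0.46 ± 0.13 (SE) on the log2 scale in AKI_PBS against sham (edgeR adjusted p = 0.0102). Vesicles against AKI_PBS gave -0.24 ± 0.13 (adjusted p = 0.152), a difference called under scaling by library totals, and vesicles against sham gave 0.23 ± 0.13 (adjusted p = 0.293).

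Ppm1d, the phosphatase that dampens p53 and its upstream kinases, was at 9.87, 7.05 and 6.99 CPM in sham, 9.14, 10.4 and 12.6 CPM in AKI_PBS and 6.59, 7.30 and 6.69 CPM in AKI_PTPi_mEVs. The sham and AKI_PBS libraries overlapped, with a log2 fold change of 0.43 ± 0.21 (SE, edgeR adjusted p = 0.106) that was called without sham replicate 1 (0.60, adjusted p = 0.0498). Ppm1d was lower with vesicles than with saline by -0.64 ± 0.22 (adjusted p = 0.0248). Mdm4, the relative of Mdm2 that masks the p53 activation domain, was not called in AKI_PBS against sham (0.14 ± 0.12, adjusted p = 0.341) and was lower with vesicles than with saline (-0.34 ± 0.12, adjusted p = 0.0280). The Mdm4 call was lost without AKI_PBS replicate 2 or 3, without each vesicle library in turn, with no low-count filter and with only the groups compared, and the Ppm1d call without AKI_PBS replicate 3, without each vesicle library in turn and with no filter.

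Cdkn1a (ENSMUSG00000023067.15), which encodes the cyclin-dependent kinase inhibitor p21, stood at 13.6, 9.93 and 9.22 CPM in sham, at 529, 559.9 and 817 CPM in AKI_PBS and at 36.0, 53.2 and 32.6 CPM in AKI_PTPi_mEVs. The 3 groups did not overlap, and the vesicle libraries lay between the other groups, nearer to sham. Means ± SD were 10.9 ± 2.34, 635 ± 158 and 40.6 ± 11.0 CPM (n = 3 each). Cdkn1a was 58.2-fold higher in AKI_PBS than in sham (edgeR adjusted p = 7.85e-08) and still 3.71-fold higher in AKI_PTPi_mEVs than in sham (1.89 ± 0.24 SE on the log2 scale, adjusted p = 0.000571). With vesicles it was lower than with saline by -3.97 ± 0.24 (adjusted p = 4.38e-07).

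Sfn, or stratifin, an epithelial protein that holds cyclin-kinase complexes in the cytoplasm, was at 17.8, 18.1 and 19.2 CPM in sham, 288, 408 and 282 CPM in AKI_PBS and 88.6, 131 and 56.7 CPM in AKI_PTPi_mEVs. Again the groups did not overlap, and the vesicle libraries lay between the others. Sfn rose 17.8-fold in AKI_PBS against sham (4.15 ± 0.28 SE on the log2 scale, edgeR adjusted p = 3.87e-07). It was lower with vesicles than with saline by -1.83 ± 0.25 (adjusted p = 8.33e-05) and 5.02-fold higher with vesicles than in sham (adjusted p = 0.0003). The log2 differences of Cdkn1a and Sfn against sham were 1.89 and 2.33 in the vesicle group.

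Plk3, a stress-responsive polo-like kinase, was at 7.13, 5.01 and 9.83 CPM in sham, 35.1, 50.7 and 48.5 CPM in AKI_PBS and 6.13, 5.77 and 5.70 CPM in AKI_PTPi_mEVs. Every AKI_PBS library lay above all others, and the vesicle libraries overlapped with sham. Its log2 fold changes were 2.61 ± 0.23 (SE, edgeR adjusted p = 2.17e-06) for AKI_PBS against sham, -2.93 ± 0.24 (adjusted p = 2.28e-06) for vesicles against AKI_PBS and -0.31 ± 0.25 (adjusted p = 0.44) for vesicles against sham. The 95% interval of the last difference ran from -0.92 to 0.29.

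**Figure D3:**
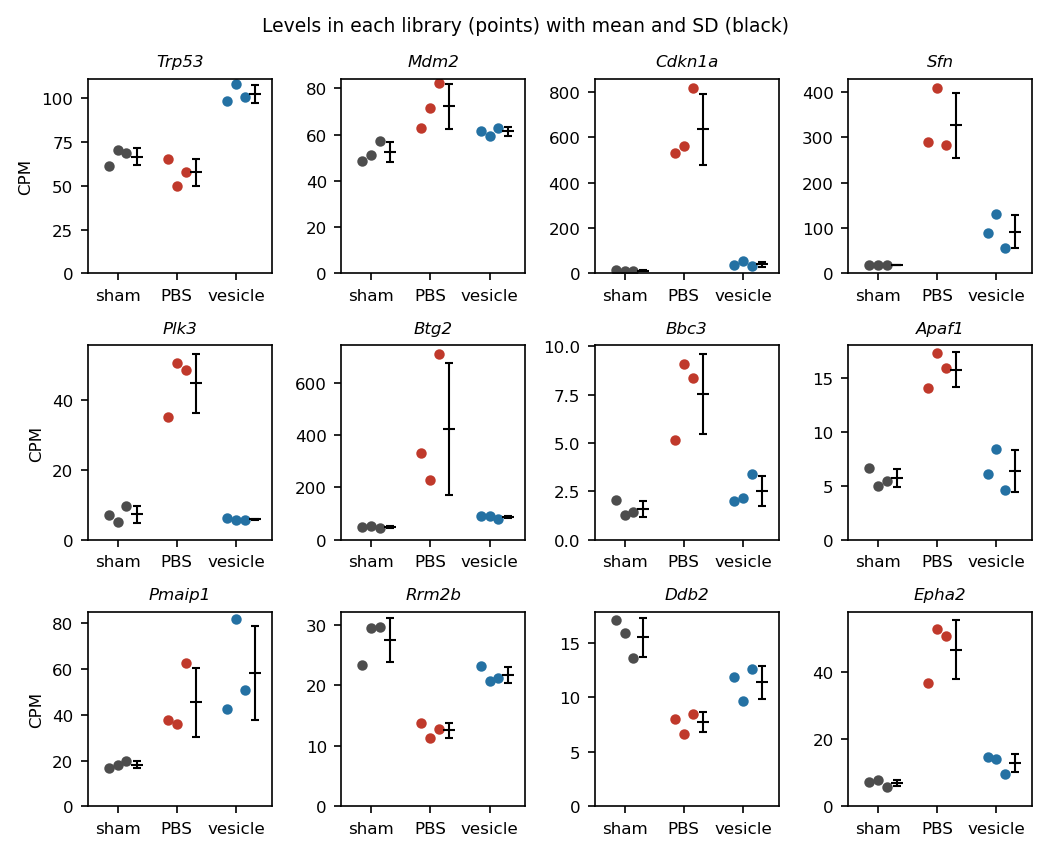
CPM of 12 of the genes in each library (points, 3 per group), with the group mean and SD in black and a vertical axis from 0 for each gene. PBS stands for AKI_PBS and vesicle for AKI_PTPi_mEVs. For Cdkn1a, Sfn and Epha2 the vesicle libraries lie between the other groups, for Plk3 and Apaf1 they overlap with sham, for Pmaip1 they overlap with AKI_PBS, and for Trp53 they lie above both.

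Among the other arrest genes, Btg2, an antiproliferative protein that recruits the mRNA deadenylation machinery, ranged from 45.9 to 54.9 CPM in sham, from 229 to 708 CPM in AKI_PBS and from 81.6 to 90.2 CPM in AKI_PTPi_mEVs. Its rise in AKI_PBS was 3.09 ± 0.33 on the log2 scale (edgeR adjusted p = 1.57e-05) and 2.50 without AKI_PBS replicate 3. Against AKI_PBS the vesicle group was lower by -2.28 ± 0.32 (adjusted p = 0.000144), or -1.69 without that library.

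Gadd45a and Gadd45b, small stress proteins that bind PCNA and activate a stress kinase, rose by 2.96 ± 0.29 (edgeR adjusted p = 4.83e-06) and 2.07 ± 0.34 (adjusted p = 0.000249) on the log2 scale in AKI_PBS against sham. With vesicles they were lower than with saline by -1.99 ± 0.28 (adjusted p = 9.13e-05) and -1.97 ± 0.34 (adjusted p = 0.00045). Gadd45a was also higher in the vesicle group than in sham (0.97 ± 0.29, adjusted p = 0.0452). That call was lost with library totals, limma voom or the stricter filter, and without any 1 of the sham libraries or vesicle replicates 2 or 3. Gadd45g, the third of these genes, missed the threshold in AKI_PBS against sham (0.86 ± 0.34, adjusted p = 0.0502). It was called there with library totals, DESeq2, limma voom, the stricter filter or a replicate block, and without sham replicate 3 (1.31) or AKI_PBS replicate 1 (1.09). Gadd45g was lower with vesicles than with saline (-1.46 ± 0.35, adjusted p = 0.00448).

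Ccng1, cyclin G1, which partners a phosphatase and is a classic p53 target, went the other way. It fell by -0.44 ± 0.14 on the log2 scale in AKI_PBS (edgeR adjusted p = 0.0164), a call lost without sham replicate 3 (-0.31, adjusted p = 0.0809). With vesicles it was higher than with saline by 0.76 ± 0.14 (adjusted p = 0.000594). Plk2, another polo-like stress kinase, and Cdkn2b, the CDK inhibitor p15, passed in no comparison with all libraries. Their log2 fold changes in AKI_PBS against sham were 0.03 ± 0.28 and -0.51 ± 0.38, and Cdkn2b turned to 0.13 without sham replicate 1 and was called lower (-0.88) without sham replicate 3. With vesicles against saline Cdkn2b gave 0.31 ± 0.38 and Plk2 gave -0.57 ± 0.28 (adjusted p = 0.106), and Plk2 was called lower there without AKI_PBS replicate 1 (-0.87, adjusted p = 0.00301) and with no low-count filter. Against sham Plk2 gave -0.54 ± 0.28 with vesicles (adjusted p = 0.225) and was called lower with only the groups compared.

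Among the death genes, those of the mitochondrial pathway differed from each other. Bbc3, which encodes the BH3-only protein PUMA, was at 2.05, 1.30 and 1.42 CPM in sham, 5.17, 9.06 and 8.37 CPM in AKI_PBS and 2.01, 2.18 and 3.40 CPM in AKI_PTPi_mEVs. These levels rest on 14 to 106 counts per library, and the AKI_PBS libraries lay above all others. Bbc3 rose by 2.24 ± 0.33 (SE) on the log2 scale in AKI_PBS against sham (edgeR adjusted p = 9.4e-05) and was lower with vesicles than with saline by -1.58 ± 0.31 (adjusted p = 0.00107).

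Apaf1, the scaffold of the apoptosome, was at 6.64, 5.01 and 5.47 CPM in sham, 14.1, 17.3 and 15.9 CPM in AKI_PBS and 6.13, 8.39 and 4.61 CPM in AKI_PTPi_mEVs. The AKI_PBS libraries lay above all others, and vesicle and sham libraries overlapped. Its log2 fold changes were 1.46 ± 0.24 (SE, edgeR adjusted p = 0.000206), -1.30 ± 0.23 (adjusted p = 0.000588) and 0.16 ± 0.24 (adjusted p = 0.722) in the 3 comparisons. Aen, an apoptosis-enhancing nuclease, was at 40.4, 46.3 and 53.5 CPM in sham, 86.8, 93.1 and 76.5 CPM in AKI_PBS and 95.1, 100.4 and 66.0 CPM in AKI_PTPi_mEVs. Both injured groups lay above sham and overlapped with each other.

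Aen rose by 0.87 ± 0.17 (edgeR adjusted p = 0.000894) on the log2 scale in AKI_PBS and by 0.90 ± 0.17 (adjusted p = 0.00553) with vesicles, each against sham. The difference between vesicles and saline was 0.03 ± 0.17 (adjusted p = 0.902), with a 95% interval from -0.39 to 0.44. Pmaip1, which encodes the BH3-only protein NOXA, was chosen for its values after they were seen: it was at 16.7, 18.1 and 19.97 CPM in sham, 37.8, 35.7 and 62.5 CPM in AKI_PBS and 42.6, 81.5 and 50.7 CPM in AKI_PTPi_mEVs. Both injured groups lay above sham, by 1.31 ± 0.26 (adjusted p = 0.000903) and 1.67 ± 0.26 (adjusted p = 0.00185) on the log2 scale. Vesicles against AKI_PBS gave 0.36 ± 0.25 (adjusted p = 0.242, 95% interval -0.25 to 0.97), and without AKI_PBS replicate 3 it was called higher (0.66, adjusted p = 0.0282).

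Bax, the pore former of the outer mitochondrial membrane, was not called in any comparison with all libraries. In AKI_PBS it was at 115, 126 and 59.5 CPM, so that replicate 3 lay below every sham library and the others above, and without that library the log2 fold change against sham went from 0.33 to 0.59 and was called (edgeR adjusted p = 0.0127). Vesicles against saline gave -0.32 ± 0.24, and -0.59 with a call without the same library (adjusted p = 0.015). Trp53inp1, a p53-induced stress protein of autophagy and death, rose by 2.61 ± 0.50 on the log2 scale in AKI_PBS (adjusted p = 0.00142) and was lower with vesicles than with saline by -2.60 ± 0.50 (adjusted p = 0.00173). AKI_PBS replicate 3 stood at 293 CPM beside 68.1 and 79.3 CPM in its group, and without it the 2 values were 1.62 and -1.60, both called.

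Among the remaining death genes, Tnfrsf10b, a TRAIL receptor, rose by 0.93 ± 0.26 on the log2 scale in AKI_PBS (edgeR adjusted p = 0.00838). Perp, a membrane protein of desmosomes, rose by 0.48 ± 0.14 (adjusted p = 0.0102). Ei24, a membrane protein of the endoplasmic reticulum, rose by 0.45 ± 0.14 (adjusted p = 0.0135), a call lost without sham replicate 2 or AKI_PBS replicate 2, and was lower with vesicles than with saline by -0.47 ± 0.14 (adjusted p = 0.0107). The death receptor Fas and the ectodysplasin receptor Eda2r passed in no comparison, with log2 fold changes of 0.15 ± 0.22 and 0.92 ± 0.75 in AKI_PBS against sham. Eda2r had only 2 to 22 counts per library. With vesicles against saline Tnfrsf10b gave -0.18 ± 0.25, Fas -0.31 ± 0.22 and Eda2r 0.50 ± 0.65. Perp gave -0.28 ± 0.14 there (adjusted p = 0.108), a difference called with library totals.

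Of the repair genes, Rrm2b and Ddb2 fell in AKI_PBS, and Rrm2b, Ddb2 and Polk were higher with vesicles than with saline. Rrm2b, the p53-inducible ribonucleotide reductase subunit, was at 23.3, 29.5 and 29.6 CPM in sham, 13.7, 11.3 and 12.7 CPM in AKI_PBS and 23.2, 20.7 and 21.2 CPM in AKI_PTPi_mEVs. The AKI_PBS libraries lay below all others, and the vesicle libraries all lay below sham. Rrm2b fell by -1.13 ± 0.16 (SE) on the log2 scale in AKI_PBS (edgeR adjusted p = 8.06e-05), was higher with vesicles than with saline by 0.79 ± 0.16 (adjusted p = 0.00141) and differed from sham by -0.34 ± 0.16 (adjusted p = 0.172).

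Ddb2, which recognises ultraviolet lesions for nucleotide excision repair, was at 17.1, 15.9 and 13.6 CPM in sham, 8.02, 6.67 and 8.46 CPM in AKI_PBS and 11.9, 9.70 and 12.6 CPM in AKI_PTPi_mEVs. The 3 groups did not overlap, with sham highest and AKI_PBS lowest. Ddb2 fell by -1.01 ± 0.19 (SE) on the log2 scale in AKI_PBS (edgeR adjusted p = 0.000757) and was higher with vesicles than with saline by 0.56 ± 0.20 (adjusted p = 0.0285). The latter call was lost without AKI_PBS replicate 2, without vesicle replicate 1 or 3, with library totals and with only the groups compared.

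Polk, a translesion DNA polymerase, was at 16.1, 16.5 and 13.99 CPM in sham, 14.5, 13.3 and 9.43 CPM in AKI_PBS and 18.7, 17.8 and 17.4 CPM in AKI_PTPi_mEVs. AKI_PBS overlapped with sham (-0.33 ± 0.19 on the log2 scale, edgeR adjusted p = 0.153), and the vesicle libraries lay above AKI_PBS by 0.53 ± 0.19 (adjusted p = 0.0288). The call against AKI_PBS was lost without AKI_PBS replicate 3 or any 1 vesicle library, with library totals and with only the groups compared. Xpc, the damage sensor of global nucleotide excision repair, passed in no comparison, with -0.10 ± 0.14, -0.07 ± 0.14 and -0.17 ± 0.14. Kidney markers were lower in AKI_PBS as well, with 5 of 8 called lower there and 4 of 8 called higher with vesicles than with saline (6 and 5 called in either direction, and 3 in place of the 6 without AKI_PBS replicate 1 or 2), and their part in the repair genes' values was not tested. Of all genes, 27.9% were called lower in AKI_PBS than in sham and 25.4% higher with vesicles than with saline.

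Among the growth genes, Epha2 changed most. Epha2, a receptor tyrosine kinase for ephrins, was at 7.13, 7.70 and 5.88 CPM in sham, 36.6, 52.7 and 50.5 CPM in AKI_PBS and 14.7, 13.9 and 9.76 CPM in AKI_PTPi_mEVs. The 3 groups did not overlap, and the vesicle libraries lay between the others. Epha2 rose 6.73-fold in AKI_PBS (edgeR adjusted p = 8.22e-07), was lower with vesicles than with saline by -1.86 ± 0.20 (SE) on the log2 scale (adjusted p = 1.41e-05) and stayed 0.89 ± 0.21 above sham (adjusted p = 0.017), a call lost without sham replicate 1 or 3 or vesicle replicate 1 or 2.

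Zmat3, an RNA-binding zinc finger protein, was at 13.7, 22.8 and 23.3 CPM in sham, 32.6, 35.9 and 28.4 CPM in AKI_PBS and 31.4, 31.9 and 26.4 CPM in AKI_PTPi_mEVs. Both injured groups lay above sham. The rise was 0.70 ± 0.20 (SE) on the log2 scale in AKI_PBS (edgeR adjusted p = 0.00919), and vesicles against sham gave 0.59 ± 0.20 (adjusted p = 0.0687). Against saline Zmat3 gave -0.11 ± 0.19 (adjusted p = 0.654). Phlda3, an inhibitor of AKT at the membrane, rose by 0.76 ± 0.29 in AKI_PBS (adjusted p = 0.0404), and vesicles against saline gave -0.07 ± 0.28 (adjusted p = 0.858). The rise lost its call with the stricter filter and when any of sham replicates 2 and 3 or AKI_PBS replicates 1 and 2 was left out.

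Sesn2, a sestrin that restrains mTOR signalling, was at 58.2, 63.2 and 66.9 CPM in sham, 79.7, 89.1 and 187 CPM in AKI_PBS and 78.0, 61.6 and 85.2 CPM in AKI_PTPi_mEVs. Every AKI_PBS library lay above sham, and replicate 3 stood well above its group. Sesn2 rose by 0.92 ± 0.27 (SE) on the log2 scale in AKI_PBS (edgeR adjusted p = 0.0117), and vesicles against saline gave -0.66 ± 0.27 (adjusted p = 0.0544). The latter was called lower without AKI_PBS replicate 1 (-0.88) or 2 (-0.83), with library totals, DESeq2, no filter or the stricter filter, and was -0.17 without AKI_PBS replicate 3. Its relative Sesn1 was at 22.3, 19.2 and 19.3 CPM in sham, 19.8, 20.6 and 41.1 CPM in AKI_PBS and 18.2, 10.8 and 17.7 CPM in AKI_PTPi_mEVs. Sesn1 was lower with vesicles than with saline by -0.80 ± 0.28 (adjusted p = 0.0280). Its call was lost without AKI_PBS replicate 3 (-0.37, adjusted p = 0.157) or vesicle replicate 2 (-0.58, adjusted p = 0.116), and with only the groups compared.

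Upstream of p53, the 18 genes of DNA damage signalling include checkpoint kinases, end-joining and recombination genes. In AKI_PBS 3 were higher and 5 lower than in sham (median log2 fold change -0.03), 44.4% called against 55.7% of all genes. With vesicles 7 were higher than with saline (median 0.46), 38.9% against 51.1% of all genes. Against sham 7 were higher with vesicles (median 0.39), 38.9% against 13.2% of all genes. The other 11 did not pass in each of the vesicle comparisons. Chek2, a checkpoint kinase that phosphorylates p53, was at 9.18, 9.37 and 8.82 CPM in sham, 2.24, 2.05 and 1.94 CPM in AKI_PBS and 12.1, 16.3 and 14.7 CPM in AKI_PTPi_mEVs. It fell by -2.13 ± 0.22 on the log2 scale in AKI_PBS (edgeR adjusted p = 6.43e-06) and was 2.78 ± 0.22 higher with vesicles than with saline (adjusted p = 1.8e-06). The end-joining genes Prkdc and Xrcc6 fell by -1.29 ± 0.14 (adjusted p = 9.94e-06) and -1.02 ± 0.17 (adjusted p = 0.000296). With vesicles they were higher than with saline by 0.95 ± 0.14 (adjusted p = 0.000148) and 1.56 ± 0.17 (adjusted p = 1.68e-05).

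With vesicles against sham, the smallest adjusted p was that of Chek1, the replication checkpoint kinase, at 2.74 ± 0.40 on the log2 scale (edgeR adjusted p = 0.00125). Next came Topbp1, which activates the kinase ATR, at 0.95 ± 0.20 (adjusted p = 0.00818). Brca1, a homologous recombination gene, was at 1.80 ± 0.39 (adjusted p = 0.0105, lost without sham replicate 2). Without sham replicate 1 the difference was 3.36 for Chek1 and 2.56 for Brca1. Over the 3 sham libraries Chek1 had 30 counts and Brca1 had 38. Topbp1 and Brca1 were also higher in AKI_PBS than in sham, by 1.08 ± 0.19 (adjusted p = 0.000464) and 1.10 ± 0.40 (adjusted p = 0.0322). With vesicles against saline they gave -0.13 ± 0.19 (adjusted p = 0.578) and 0.70 ± 0.36 (adjusted p = 0.116). Chek1 gave 1.94 ± 0.37 there (adjusted p = 0.000835). The number of damage signalling genes called against sham fell from 7 to 2 without sham replicate 2 and to 3 without sham replicate 3 or vesicle replicate 2.

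**Figure D4:**
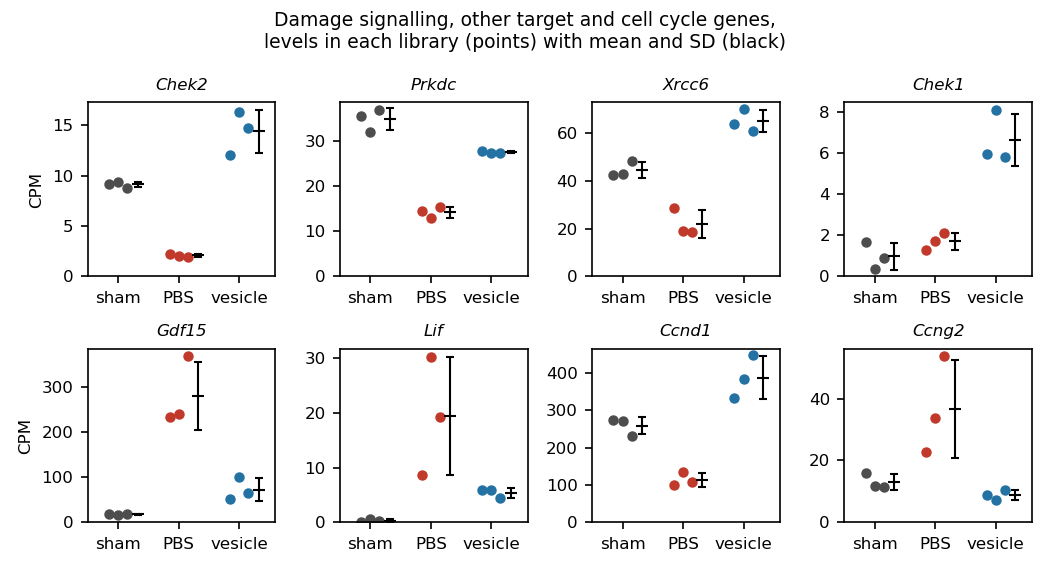
CPM of 4 DNA damage signalling genes, 2 further p53 targets and 2 cyclin genes in each library (points, 3 per group), with the group mean and SD in black and a vertical axis from 0 for each gene. PBS stands for AKI_PBS and vesicle for AKI_PTPi_mEVs. Chek2, Prkdc, Xrcc6 and Ccnd1 are lowest in AKI_PBS, Gdf15, Lif and Ccng2 are highest there, and Chek1 is highest in the vesicle libraries.

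Of 24 further genes known as p53 targets, 9 were higher and 4 lower in AKI_PBS than in sham (median 0.31), 3 higher and 6 lower with vesicles than with saline (median 0.09), and 6 higher with vesicles than in sham (median 0.30), the other 18 not passing. The shares called were 54.2%, 37.5% and 25% in that order, against 55.7%, 51.1% and 13.2% of all genes. Gdf15, a stress cytokine, rose by 3.99 ± 0.26 on the log2 scale in AKI_PBS (edgeR adjusted p = 3.2e-07) and remained 2.04 ± 0.25 above sham with vesicles (adjusted p = 0.000447). Lif, an interleukin-6 family cytokine with 8 counts over the 3 sham libraries, rose by 6.16 ± 0.63 (adjusted p = 7.17e-06), and the vesicle group was 4.33 ± 0.68 above sham (adjusted p = 0.00208). Without sham replicate 2 these values of Lif were 7.43 and 5.61. With vesicles against saline Gdf15 was lower by -1.95 ± 0.24 (adjusted p = 3.4e-05) and Lif by -1.83 ± 0.42 (adjusted p = 0.00331). Lif passed the low-count filter through the injured groups alone. Bid, a BH3-only protein, and Fdxr, a mitochondrial ferredoxin reductase, were higher with vesicles than with saline, by 1.30 ± 0.13 (adjusted p = 6.86e-06) and 1.36 ± 0.17 (adjusted p = 3.39e-05). Both were lower in AKI_PBS than in sham, by -0.74 ± 0.13 (adjusted p = 0.000296) and -1.39 ± 0.16 (adjusted p = 1.93e-05). With vesicles against sham Fdxr gave -0.03 ± 0.16 (adjusted p = 0.915). Bid was 0.56 ± 0.12 above sham with vesicles (adjusted p = 0.0116), a call lost without sham replicate 2. The 6 calls against sham came down to 3 without any 1 sham library or without vesicle replicate 1 or 2.

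Among genes that modify p53, 12 of 13 were tested (Trp73 was not), and 4 were higher and 2 lower in AKI_PBS than in sham. With vesicles against saline 1 was higher and 6 lower, 4 of 12 being called without vesicle replicate 3, and against sham 0 passed with edgeR or DESeq2, with 1 higher and 0 lower at an unadjusted p under 0.05. By edgeR 50%, 58.3% and 0% of these genes were called in the 3 comparisons, against 55.7%, 51.1% and 13.2% of all genes. Ppp1r13l, which encodes the p53 inhibitor iASPP, rose by 1.75 ± 0.25 on the log2 scale in AKI_PBS (edgeR adjusted p = 7.08e-05) and was lower with vesicles by -1.18 ± 0.24 (adjusted p = 0.00128). Usp7, a deubiquitinase of Mdm2 and p53, and the acetyltransferase Crebbp rose by 0.53 ± 0.13 (adjusted p = 0.00422) and 0.58 ± 0.15 (adjusted p = 0.00482) and were lower with vesicles by -0.53 ± 0.13 (adjusted p = 0.00483) and -0.70 ± 0.15 (adjusted p = 0.00161). The smallest adjusted p-values against sham were those of Ppp1r13l (0.57 ± 0.25, adjusted p = 0.155), Trp53bp2 (-0.35 ± 0.17, adjusted p = 0.199) and Rchy1 (0.25 ± 0.14, adjusted p = 0.244).

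Of 18 cell cycle genes, 16 were tested (Cdkn2a and Cdc25c were not). In AKI_PBS against sham 3 were higher and 3 lower, with vesicles against saline 3 higher and 5 lower (5 calls without AKI_PBS replicate 1), and with vesicles against sham 3 higher, the other 13 not passing. These are 37.5%, 50% and 18.8% of the genes tested in the list, against 55.7%, 51.1% and 13.2% of all genes. The G1 cyclin Ccnd1 fell by -1.17 ± 0.16 on the log2 scale in AKI_PBS (edgeR adjusted p = 5.57e-05) and was 1.76 ± 0.16 higher with vesicles (adjusted p = 4.7e-06). The kinase Cdk2 rose by 0.76 ± 0.14 (adjusted p = 0.000465) and Ccng2, an unconventional cyclin, by 1.49 ± 0.28 (adjusted p = 0.000617). Ccng2 was lower with vesicles than with saline by -2.07 ± 0.29 (adjusted p = 9.53e-05), and the transcription factor E2f1 was higher by 1.94 ± 0.38 (adjusted p = 0.00104). E2f1 was lower in AKI_PBS than in sham by -1.26 ± 0.39 (adjusted p = 0.0138). Against sham, Cdk2, Ccne1 and Ccnd1 were higher with vesicles at 0.63 ± 0.14 (adjusted p = 0.0105), 1.22 ± 0.31 (adjusted p = 0.0214) and 0.58 ± 0.16 (adjusted p = 0.0287), and each of these calls was lost without sham replicate 2 or vesicle replicate 2. Without sham replicate 1 or 3 the count was 1.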

How the data were processed

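RNA was measured in 9 mouse kidney libraries, grouped by treatment label, 3 to a group. The authors deposited a table of raw counts, whole numbers for each gene. Phenol-chloroform extraction and a Tn5-based kit, with 100 ng of total RNA as input, are stated per the labels' protocols. The submitters' processing notes list STAR and HTSeq without versions, and the build GRCh38.p14, a human build, although the identifiers are mouse. The build was therefore not settled and no file coordinates are given. As the strand setting is not given in the sources used here, overlapping and antisense genes could not be told apart.

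Symbols were found for 52073 identifiers. The software was edgeR 4.0.16 under R 4.3.3. A low-count filter (filterByExpr, by group) kept 17036 genes, scaling used TMM, and a robust glmQLFit over all 9 libraries had 6 residual degrees of freedom. Each pair of groups was tested by glmQLFTest, with Benjamini-Hochberg adjustment over all genes tested and a threshold of 0.05. An SE is the log2 fold change divided by the root of F. The fit was run on simulated counts in which a small set of genes was changed, in AKI_PBS only. Far more genes were called in these data, so that run does not test the scaling under changes this broad. Alternatives were relative log expression factors, library totals, DESeq2 1.42.0, limma 3.58.1 voom, no filter, a filter of 50 counts in 3 libraries, the compared groups alone, a replicate block, a log2 fold change of at least 1, and each library left out. Figures were drawn with Python 3.11.15 and matplotlib 3.10.9.

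The 34 genes and the companion lists were chosen with earlier results of these data known. Values in every library are given for Trp53, Mdm2 and Cdkn1a, and in each role for the 3 genes with the smallest adjusted p in AKI_PBS against sham and the 2 with the smallest in AKI_PTPi_mEVs against AKI_PBS. From each companion list the 3 genes with the smallest adjusted p per comparison are named, except 1 gene that is not reported here. Other values by library (Pmaip1, and those of Btg2, Bax and Trp53inp1) were chosen after they were seen. Genes with close copies could share reads. Reads carried no stated molecular identifiers. No libraries within a group were duplicates.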

Additional observations from a re-analysis of the deposited data

How the results depend on the processing

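Of the 49 calls of the 34 genes over the 3 comparisons (22, 20 and 7, in the order AKI_PBS against sham, AKI_PTPi_mEVs against AKI_PBS, AKI_PTPi_mEVs against sham), 38 were lost under no other scaling, tool, filter, design or left-out library, and 0 reversed. A log2 fold change of at least 1 left 13, 11 and 3. Leaving out single libraries gave 20 to 23, 16 to 22 and 4 to 6 calls, the lowest of the last without AKI_PTPi_mEVs replicate 2. DESeq2 called 23, 21 and 7, limma voom 23, 20 and 6, library totals 23, 21 and 6, no filter 22, 20 and 9, the stricter filter 22, 21 and 6, and only the groups compared 22, 16 and 9. With a replicate block the counts were 23, 20 and 8, the call of Mdm4 in the second comparison was lost (-0.34, adjusted p = 0.0547), and Gadd45g in the first and last and Sesn2 in the second were called (0.90, -0.55 and -0.59). Replicate numbers in the labels are shared by the groups. Correlations of same-numbered libraries of different groups ran from -0.187 to 0.111, and those of differently numbered ones from -0.171 to 0.146. With 3 libraries per group these values cannot show whether the numbers stand for a shared batch. Genes that were not called in a comparison changed sign under some settings, and the cause was not tested. In AKI_PBS against sham, Plk2 (0.03) gave -0.081 with voom and -0.0075 with no filter, and ran from -0.29 to 0.33 as libraries were left out, Fas from -0.12 to 0.30, Sesn1 from -0.0014 to 0.60 and Cdkn2b from -0.88 to 0.13. In AKI_PTPi_mEVs against AKI_PBS, Aen (0.03) gave -0.078 with library totals and -0.0047 with the stricter filter, and ran from -0.065 to 0.21, Xpc from -0.17 to 0.018, Eda2r from -0.53 to 1.02 and Phlda3 from -0.23 to 0.17. In AKI_PTPi_mEVs against sham, Bax (0.0016) gave -0.0035 with relative log expression factors, -0.037 with library totals, -0.0029 with DESeq2, -0.0098 with voom, -0.057 with the stricter filter and -0.025 with only the groups compared, and ran from -0.13 to 0.16. Trp53inp1 (0.013) gave -0.026 with library totals, -0.0086 with voom, -0.045 with the stricter filter, -0.013 with only the groups compared and -0.082 with the replicate block, and ran from -0.20 to 0.13. Apaf1 ran from -0.094 to 0.35, Fas from -0.25 to 0.0089, Ei24 from -0.080 to 0.046 and Cdkn2b from -0.56 to 0.45. Low counts limit Eda2r most, with 2 to 22 counts per library.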
